A study of Mus musculus with 8 samples.

Results

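The genes of the cytosolic ribosomal proteins were followed in mouse adipocytes exposed to asbestos fibres. They were chosen by name alone: every array gene called Rpl or Rps with a number, and Rplp0, Rplp1, Rplp2 and Rpsa, without the Rps6k kinases. The rule found 82 genes among the 34839 gene names on the array, read by 185 probes. Of these, 79 passed the filter on dim probes and were tested among 22918 genes. All 79 were above background on each of the 8 arrays, so none passed through 1 group alone. Each gene was read by its brightest probe.

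The cytosolic ribosome is built from a large 60S subunit, whose proteins are named Rpl, and a small 40S subunit, whose proteins are named Rps. A cell needs them in equal numbers, and their genes are among the most strongly expressed of any cell type. Their mRNAs begin with a run of pyrimidines, the 5′ terminal oligopyrimidine (TOP) motif, through which the mTORC1 kinase sets how fast they are translated. Some members also act off the ribosome: Rpl5 and Rpl11, with the 5S rRNA, bind and hold back Mdm2 when ribosome assembly fails, which raises p53.

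The cells were adipocytes differentiated in culture from 3T3-L1, an established mouse preadipocyte line. The groups were cells given chrysotile, a serpentine asbestos, cells given crocidolite or amosite, which are amphibole asbestos, and cells given physiological saline. The fibre dose was 10 mg/cm2, in the unit the labels give, and RNA was taken after 72 h in all groups. Each group had 2 one-colour arrays, and the design text speaks of arrays run in duplicate without saying whether the cultures were separate. The p-values below therefore reflect no more than the scatter of these arrays, which may be technical.

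Levels are log2 processed intensity minus the array's 75th percentile of it, so a level of 7 lies 7 doublings above that percentile. The percentile itself lay between 340.1 and 453.4 intensity units, and 31287 to 34978 of 55681 probes were well above background on an array. No spot was saturated. All 10 adipocyte markers were above background on the 8 arrays, with a summed log2 level of 11.73 to 11.83 in chrysotile, crocidolite and amosite cells and of 11.72 and 12.08 in saline cells. The 9 preadipocyte and fibroblast markers were also all above background, with sums of 9.93 and 9.73 in chrysotile cells, 9.90 and 9.71 in crocidolite cells, 9.87 and 9.64 in amosite cells, and 9.82 on both saline arrays. As with the members below, replicate 1 was the higher in each fibre group. Of 10 macrophage markers, 5 were above background on every array and Lyz2 and Cx3cr1 on none, with sums of 5.95 to 6.24 in fibre-treated cells and of 6.06 and 6.21 in saline cells. Those sums were mostly 1 gene, Itgam, which alone read 5.74 to 6.04, so they say little of the other macrophage markers. Single markers differed from saline without overlap: S100a4 of the fibroblast list by 1.25 with chrysotile, 1.06 with crocidolite and 0.91 with amosite, Ly6a by 0.82 with chrysotile and 0.78 with crocidolite, and Cd14 and Cd68 of the macrophage list by 0.70 and 0.60 with chrysotile and by 0.96 and 0.41 with crocidolite. Csf1r of that list stood at -0.45, -0.37 and -0.46 with chrysotile, crocidolite and amosite, also without overlap. In saline cells S100a4 read 3.95 and 4.98. Slc2a4 of the adipocyte list with chrysotile (-0.32), Cfd with crocidolite and amosite, and Cidec with amosite also lay below saline without overlap. Pdgfrb of the fibroblast list did so with amosite. Of all genes, 14.3%, 14.5% and 8.2% lay above saline without overlap with chrysotile, crocidolite and amosite, and 15.3%, 19.9% and 12.9% below. Of the adipocyte markers, 9 of 10 were negative against saline with chrysotile, 8 with crocidolite and 9 with amosite, and no marker passed limma's test. The part of these cell types in the results below was not tested, and in bulk RNA fewer cells of a type and less RNA per cell cannot be told apart.

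Saline replicate 1 stood apart from the other arrays in its scatter. The median SD between replicate spots of a probe printed 10 times was 0.108 log2 units there and 0.0654 to 0.0757 on the other 7 arrays. The members showed the same order: after the median of each array was taken out, their SD was 0.144 on saline replicate 1 and 0.0540 to 0.0795 elsewhere. Rpl23, which binds Mdm2 as Rpl5 and Rpl11 do, has a probe printed 10 times. Its spots ran from 2.92 to 3.40 on saline replicate 1 and from 3.09 to 3.28 on saline replicate 2. The largest differences from saline, and others that move most, are therefore given with and without saline replicate 1.

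Because a gene's value is what its probe reads, the probes behind the largest differences are shown first. For each, the first 30 of 60 bases are given 5′ to 3′, in lower case, as printed in the array files with their mm9 design positions. Rps27a, made as a fusion of ubiquitin with a 40S protein, had a brightest probe at chr11:29445914-29445973 and a dimmer one at chr11:29445842-29445901. Rpl28, a 60S protein, had its brightest probe designed at chr4:125747065-125747124 and the other at chr7:4744951-4745010, while RefSeq places the gene on chromosome 7. Rpl3, which reaches toward the 60S catalytic centre, had its brightest probe designed at chr5:10559558-10559617 and the other at chr15:79908489-79908772, a span longer than the probe; RefSeq places the gene on chromosome 15.
Rps27a brightest probe: tggtgctggagtttttatgggaagccactt
Rps27a other probe: caacaaaccagaagacaagtagttgtgtat
Rpl28 brightest probe: ccaagagctcctgagccccacaccccggaa
Rpl28 other probe: gatggtcgtccggaactgctccagtttctt
Rpl3 brightest probe: tccaggaccactttgtccagatggtggggt
Rpl3 other probe: actctttgtaagtccttgctggtccagacc
Rpl5 probe: tgctacctaatggaggaagatgaagatgtg

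A second set shows how alike the probes of a member can be. The probes A_55_P2001347 and A_55_P2037922 of Rpl7a, a 60S protein, have the same design position (mm9 chr2:26768759-26768818) and differ at 6 bases, in capitals. Bases 23 to 52 are given.
Rpl7a brightest probe: tTgGgttaaatgtaTGctGaattttctgtA
Rpl7a other probe: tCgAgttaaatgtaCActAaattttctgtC
Counted from 1 at the 5′ end of the probe, with the brightest probe's base first, the differences are T24C, G26A, T37C, G38A, G41A and A52C. Rpl36, another 60S protein, had its brightest probe designed at chr11:76415107-76415166 and another at chr5:137874477-137874536, while RefSeq places the gene on chromosome 17. Those probes match along their overlap once 3 bases are taken out of one of them.

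Of the 185 member probes, 47 (25.4%) shared an identical stretch of at least 30 bases with an array probe of another gene name, against 3.62% of all 55681 probes. In 46 of the 47 the longest stretch was shared with a probe named by a transcript, clone or probe identifier or as a predicted gene, which may be a related locus or the same gene. Of the 79 brightest probes 27 shared a stretch, and none of the 27 shared its longest one with another member. Of 181 member probes with a design position and a RefSeq chromosome, 24 probes of 14 genes lay on another chromosome than the gene, and 8 of these were brightest probes. Whether such probes also read transcripts of other loci was not tested, and the values of these genes are uncertain to that extent.

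RefSeq promoter windows (GRCm38.p6) were listed for 61 of the 82 members, in 73 windows of 250 bases before and 50 after an annotated start. A pyrimidine run was counted where a stretch of at least 6 C or T, opening with C, began within 10 bases of that start. The base before it had to be neither C nor T, except where the stretch opened exactly 10 bases before the start. Windows of Rpl34, Rpl7a and Rps27l were counted by that exception. Such a run was found in 24 of the 73 member windows (32.9%), against 15.0% of all 32851 windows. The 30 bases around the start are shown for 6 of the 23 members with such a run, which is in capitals, to let the run be seen. These 6 are examples picked after their letters were seen.
Rps6, chr4:86857353-86857382, minus strand: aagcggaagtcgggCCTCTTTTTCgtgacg
Rps18, chr17:33955651-33955680, minus strand: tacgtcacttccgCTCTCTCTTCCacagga
Rps10, chr17:27635230-27635259, minus strand: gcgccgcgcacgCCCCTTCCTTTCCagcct
Rpl35, chr2:39005117-39005146, minus strand: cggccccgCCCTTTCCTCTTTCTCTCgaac
Rpl14, chr9:120571502-120571531, plus strand: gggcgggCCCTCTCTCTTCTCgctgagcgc
Rpl15, chr14:18270972-18271001, minus strand: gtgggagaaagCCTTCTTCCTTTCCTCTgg
Over the whole windows and on both strands, CCGGAA, the core bound by ETS factors, was found in 47.9% of member windows and 14.9% of all. GGGCGG, an Sp1 core, was found in 58.9% of member windows and 35.7% of all, and AAGATGGC, the YY1 core, in 11.0% and 2.75%. A window without such letters says nothing of the factor.

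Most members were bright. Mean levels ran from -0.45 to 9.25, and the brightest probes belonged to Rplp2 at 9.25, Rps14 at 9.12, Rpl9 at 9.08, Rplp0 at 9.02 and Rpl37a at 9.01. Levels of different probes are not set against each other as amounts of mRNA. The dimmest tested members were Rps21 at 5.96, Rpl5 at 5.87, Rps27l at 5.72, Rpl22l1 at 4.97 and Rpl7l1 at -0.45. The last 3 are paralogs of Rps27, Rpl22 and Rpl7. The 3 members left out were paralogs as well: Rpl3l, known from striated muscle, and Rpl39l were well above background on 0 of 8 arrays, and Rpl10l, which stands in for Rpl10 in the male germ line, on 2 of 8.

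Within each fibre group the members lay together, and higher on replicate 1 than on replicate 2. The median member level was 7.85 and 7.61 in chrysotile cells, 7.80 and 7.55 in crocidolite cells, 7.73 and 7.39 in amosite cells, and 7.51 and 7.60 in saline cells. With saline it was replicate 1 that had the lower median. Gene by gene, replicate 1 was above replicate 2 in 78 of 79 members with chrysotile (median difference 0.25), in 75 with crocidolite (0.18), in 79 with amosite (0.29) and in 25 with saline (-0.06). In the 3 fibre groups these gaps between arrays were as large as, or larger than, the differences between groups described next. The 720 other genes with mean levels from 6.46 to 8.76, the range between the 10th and 90th percentile of the members, showed gaps of the same sign, with medians of 0.16, 0.12, 0.17 and -0.07.

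**Figure D1:**
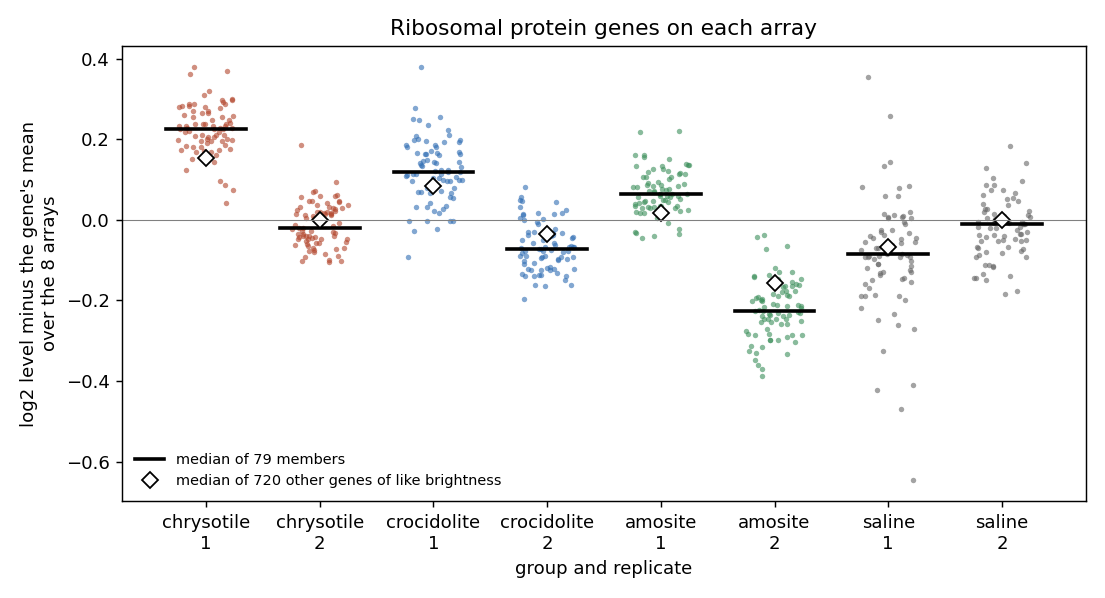
Log2 level of the 79 tested members on each of the 8 arrays, minus each gene's mean over the arrays; points are genes, bars the member median and diamonds the median of 720 other genes of like brightness. The member median was 0.23 and -0.02 in chrysotile cells, 0.12 and -0.07 in crocidolite cells, 0.06 and -0.23 in amosite cells, and -0.09 and -0.01 in saline cells, and the points of saline replicate 1 spread most.

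The 2 subunits followed the same course. The 48 large-subunit members had array medians of 7.89 and 7.68 in chrysotile cells, 7.86 and 7.63 in crocidolite cells, 7.75 and 7.47 in amosite cells, and 7.61 and 7.66 in saline cells. The 31 small-subunit members had 7.85 and 7.58, 7.72 and 7.45, 7.69 and 7.34, and 7.42 and 7.55 in the same order. With chrysotile against saline, the median log2 fold change was 0.16 for the large subunit and 0.15 for the small one.

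In chrysotile cells the members stood slightly above saline cells, with a median log2 fold change of 0.16 and a range of -0.17 to 0.51, and 76 of 79 were positive. No member passed limma's moderated test at a Benjamini-Hochberg adjusted p of 0.05, and the smallest adjusted p was 0.898. Nor did any of the 22918 genes (0%), whose median was -0.01 and of which 48.9% were positive. The like-brightness genes stood at a median of 0.10 with 71.9% positive, so the member median was 0.05 above theirs. That excess was -0.01 without chrysotile replicate 1 and 0.10 without chrysotile replicate 2. On single arrays, the gap between the median levels of members and of like-brightness genes had an SD of 0.10 between replicates. That gap is one of levels and not of fold changes, so its SD does not directly measure the spread of the excess. At an unadjusted p of 0.05, 1 member was higher and 0 were lower, against 2.83% and 2.64% of all genes. Both chrysotile arrays lay above both saline arrays in 35 members (44.3%) and below in 0, against 14.3% and 15.3% of all genes and 31.8% and 5% of genes of like brightness. Without saline replicate 1, 71 of 79 were positive with a median of 0.13. With quantile normalization the median was 0.05. Without chrysotile replicate 1 the median was 0.03, and without chrysotile replicate 2 it was 0.27.

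The members differed little from each other. The SD of their log2 fold changes was 0.11 with chrysotile, against 0.20 among genes of like brightness and 0.33 among all genes. Without saline replicate 1 the SD among members was 0.09.

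Rps27a gave the largest member difference. It read 7.93 and 7.67 in chrysotile cells, 7.82 and 7.45 in crocidolite cells, 7.79 and 7.34 in amosite cells, and 6.93 and 7.65 in saline cells. Saline replicate 1 was the lowest array, and saline replicate 2 lay inside the range of every fibre except chrysotile, where it was just below. The log2 fold change with chrysotile was 0.51 ± 0.29 (SE, limma, adjusted p = 0.913). Without saline replicate 1 it was 0.15. The other bright probe of the gene gave 0.20 with chrysotile, and its dim probe, above background on 5 arrays, gave 0.01.

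Rpl5, the 5S rRNA carrier, read 6.18 and 5.94 in chrysotile cells, 6.07 and 5.88 in crocidolite cells, 5.90 and 5.74 in amosite cells, and 5.40 and 5.85 in saline cells. Both chrysotile arrays and both crocidolite arrays lay above both saline arrays, with amosite overlapping. The log2 fold change with chrysotile was 0.44 ± 0.19 (SE, limma, adjusted p = 0.898), and 0.21 without saline replicate 1. Rpl11 and Rpl23, its partners in binding Mdm2, stood at 0.05 ± 0.15 and 0.13 ± 0.14, with overlapping arrays, and at -0.12 and 0.08 without saline replicate 1. In that setting Rpl11 was the lowest of all members. With all arrays, another bright probe of Rpl23 gave 0.36 with chrysotile. It read 7.79 and 7.67 in chrysotile cells and 7.21 and 7.53 in saline cells, without overlap. The dim probe of Rpl23 gave 0.10, and the other probes of Rpl11 gave 0.09 and 0.17.

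Rps18, at the head of the 40S subunit, had the largest difference of any member once saline replicate 1 was left out. It read 7.06 and 6.71 in chrysotile cells, 6.95 and 6.63 in crocidolite cells, 6.82 and 6.40 in amosite cells, and 6.46 and 6.51 in saline cells. Saline was tight in this probe, and the chrysotile and crocidolite arrays all lay above it. The log2 fold change was 0.40 ± 0.20 with chrysotile (SE, limma, adjusted p = 0.907) and 0.38 without saline replicate 1. Its other probe read 5.36 and 6.38 in saline cells, so that its larger difference of 0.62 with chrysotile rested on saline replicate 1.

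Rpl28 read 7.93 and 7.44 in chrysotile cells and 7.14 and 7.50 in saline cells, and the arrays overlapped. Its log2 fold change of 0.37 ± 0.28 (SE, limma, adjusted p = 0.926) came from the probe designed on chromosome 4, and was 0.19 without saline replicate 1. The probe on the gene's own chromosome 7 gave 0.09. Rps15a, a 40S protein, read 6.93 and 6.66 in chrysotile cells and 6.31 and 6.63 in saline cells, a difference of 0.32 ± 0.18, or 0.16 without saline replicate 1. Its arrays did not overlap, but only by a narrow margin over saline replicate 2.

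Rpl21, a 60S protein, was the member at an unadjusted p under 0.05. It read 7.10 and 7.12 in chrysotile cells, 7.06 and 6.98 in crocidolite cells, 6.90 and 6.72 in amosite cells, and 6.72 and 6.88 in saline cells. The chrysotile arrays were close to each other and above all amosite and saline arrays. The log2 fold change was 0.31 ± 0.12 (SE, limma, adjusted p = 0.898) and 0.23 without saline replicate 1. The 2 dim probes of the gene gave 0.18 and -0.17, and the brightest one shares a stretch with 3 probes of other names.

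**Figure D2:**
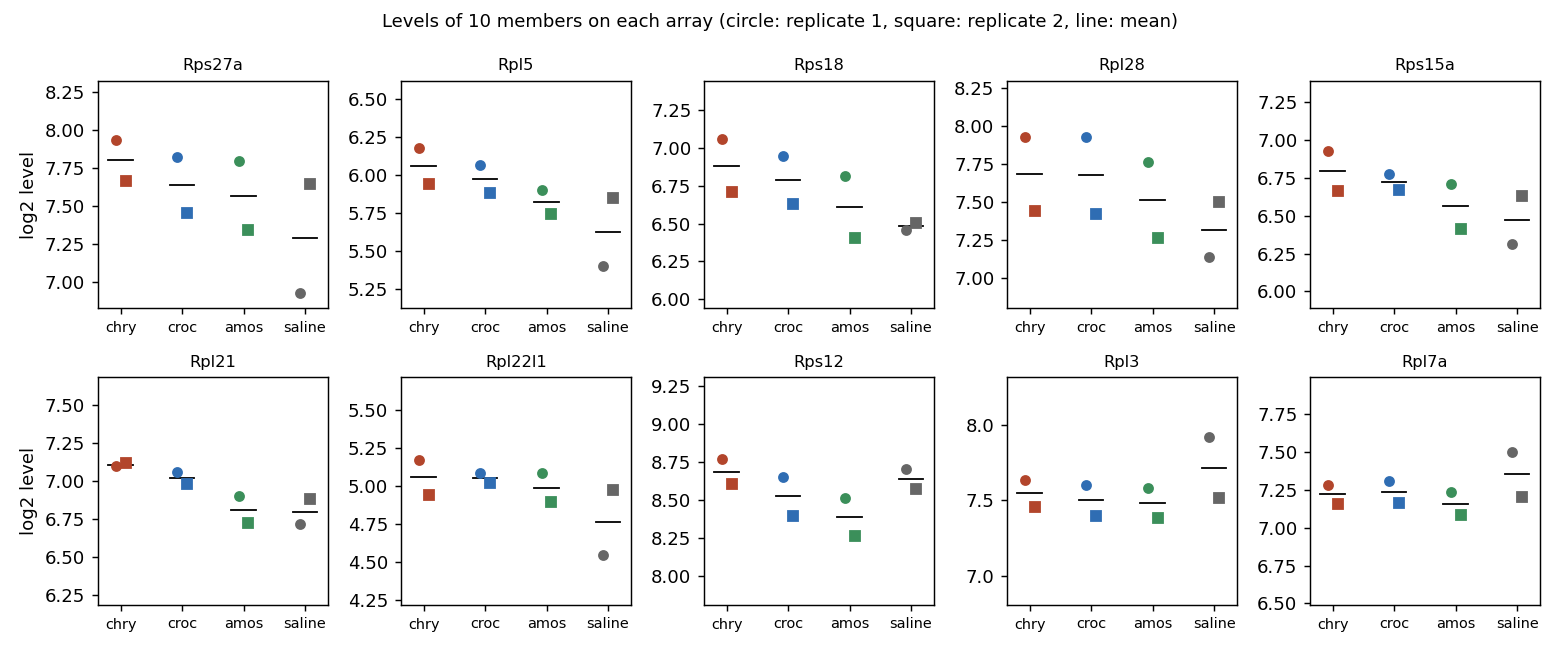
Log2 level of 10 members in chrysotile (chry), crocidolite (croc), amosite (amos) and saline cells, each panel spanning 1.5 log2 units; circles are replicate 1, squares replicate 2 and lines group means. In Rps27a, Rpl5, Rpl28, Rps15a, Rpl22l1 and, by very little, Rpl21 saline replicate 1 is the lowest array, and in Rpl3 and Rpl7a it is the highest. In Rps27a, Rpl5, Rps18, Rps15a and Rpl21 both saline arrays lie below both chrysotile arrays.

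Only 3 members were negative with chrysotile. Rpl3 read 7.64 and 7.46 in chrysotile cells and 7.92 and 7.51 in saline cells, a difference of -0.17 ± 0.18, and Rpl7a read 7.28 and 7.16 against 7.50 and 7.21, a difference of -0.13 ± 0.15. Both rest on a high saline replicate 1: without it they stood at 0.03 and 0.01. Their other probes were positive, with 0.18 for the Rpl3 probe on the gene's own chromosome 15 and 0.07 for the Rpl7a probe that differs at 6 bases. The remaining one was Rplp2 at -0.02 ± 0.12.

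The remaining roles gave small values. The P stalk, which recruits elongation factors to the ribosome, had Rplp0 at 0.07 ± 0.12 and Rplp1 at 0.10 ± 0.16 beside Rplp2. Rpsa, a 40S protein also called the laminin receptor, stood at 0.10 ± 0.13, and Rps6, the substrate of the S6 kinases, at 0.15 ± 0.17. Rps3, which also serves in DNA repair and NF-kB signalling, stood at 0.07 ± 0.12, and Rpl13a, which in human myeloid cells can leave the ribosome and silence inflammatory mRNAs, at 0.15 ± 0.17. None of these had an adjusted p below 0.949. Leaving out saline replicate 1 put Rplp0 and Rps3 at -0.02, Rpsa at 0.06 and Rpl13a at 0.09.

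Among genes mutated in human Diamond-Blackfan anaemia, Rpl35a stood at 0.26 ± 0.17, Rps7 at 0.20 ± 0.20 and Rps10 at 0.19 ± 0.17. Rps26 stood at 0.15 ± 0.21, Rps19 at 0.09 ± 0.15 and Rps24 at 0.09 ± 0.15. These 6 were positive with chrysotile, as were 76 of all 79 members. Rps26 stood at 0.27 and Rps24 at 0.03 without saline replicate 1. The paralogs beside their partners gave, with chrysotile, Rpl22l1 at 0.30 ± 0.18 and Rpl22 at 0.18 ± 0.19, Rps27l at 0.08 ± 0.17 and Rps27 at 0.24 ± 0.19, and Rpl7l1 at 0.18 ± 0.12 and Rpl7 at 0.17 ± 0.13. No test compared paralog with partner, and with amosite Rpl22l1 stood at 0.23 and Rpl22 at -0.03. With chrysotile and without saline replicate 1, Rps27l stood at -0.03 and Rps27 at 0.24, and Rpl7l1 at 0.20 and Rpl7 at 0.07. Rps27l is a p53 target. Rpl22l1 read 5.17 and 4.94 in chrysotile cells and 4.54 and 4.98 in saline cells, and stood at 0.08 without saline replicate 1. Rpl10 and Rpl39, whose own paralogs were not tested, stood at 0.16 ± 0.16 and 0.23 ± 0.20, or 0.11 and 0.14 without that array, and Rps4x at 0.16 ± 0.19.

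In crocidolite cells the members lay closer to saline cells, with a median log2 fold change of 0.07, a range of -0.21 to 0.36 and 62 of 79 positive. No member and no gene (0%) passed limma's test, and the smallest adjusted p of a member was 0.736. The like-brightness genes stood at a median of 0.06 and all genes at -0.02, so the member median was 0.01 above that of like-brightness genes. That excess was -0.04 without crocidolite replicate 1 and 0.08 without crocidolite replicate 2. At an unadjusted p of 0.05, 0 members were higher and 0 lower, against 2.87% and 4.42% of all genes. Both crocidolite arrays lay above both saline arrays in 16 members (20.3%) and below in 2, against 14.5% and 19.9% of all genes and 21.2% and 12.8% of genes of like brightness. Without crocidolite replicate 1 the median was -0.03, and without replicate 2 it was 0.19. Without saline replicate 1, 56 members were positive with a median of 0.05. The median was 0.03 with quantile normalization and 0.26 with median centring, which moved the median of all genes to 0.16.

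The largest values with crocidolite belonged to members already named. Rpl28 stood at 0.36 ± 0.28, Rps27a at 0.35 ± 0.29, Rpl5 at 0.35 ± 0.19, Rps18 at 0.31 ± 0.20 and Rpl22l1 at 0.30 ± 0.18 (SE, limma, adjusted p from 0.736 to 0.831). Without saline replicate 1 they were 0.18, -0.01, 0.13, 0.28 and 0.08 in that order, so Rps18 alone of the 5 moved by little. Rpl3 was the lowest, at -0.21 ± 0.18, and stood at -0.01 without that array. Both comparisons share the saline arrays.

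In amosite cells the members were nearest to saline cells, with a median of -0.03, a range of -0.25 to 0.28, and 25 of 79 positive. No member and no gene (0%) passed limma's test, and every member had an adjusted p of 1. The like-brightness genes stood at a median of -0.04 and all genes at -0.02. At an unadjusted p of 0.05, 0 members were higher and 0 lower, against 1.09% and 1.57% of all genes. Both amosite arrays lay above both saline arrays in 1 member, Rpl7l1, and below in 3, Rps12, Rplp2 and Rps14, against 8.2% and 12.9% of all genes. The median was -0.17 without amosite replicate 1 and 0.12 without replicate 2, so its sign rests on which array is used. It was -0.06 with 21 members positive without saline replicate 1, and 0.01 with 43 positive without saline replicate 2. Quantile normalization and median centring turned its sign as well, to 0.02 and 0.03.

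Rps12, a 40S protein, read 8.51 and 8.26 in amosite cells, 8.77 and 8.61 in chrysotile cells, 8.66 and 8.40 in crocidolite cells, and 8.70 and 8.57 in saline cells. Amosite was below saline without overlap, by -0.25 ± 0.15 (SE, limma, adjusted p = 1), and by -0.18 without saline replicate 1. A second bright probe of Rps12 gave -0.13 with amosite. It read 8.09 and 7.62 in amosite cells and 7.94 and 8.04 in saline cells, so these arrays overlapped. The other large values with amosite were Rps27a at 0.28 ± 0.29, Rpl3 at -0.23 ± 0.18, Rpl22l1 at 0.23 ± 0.18 and Rpl5 at 0.20 ± 0.19. Without saline replicate 1 they were -0.08, -0.03, 0.01 and -0.03.

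**Figure D3:**
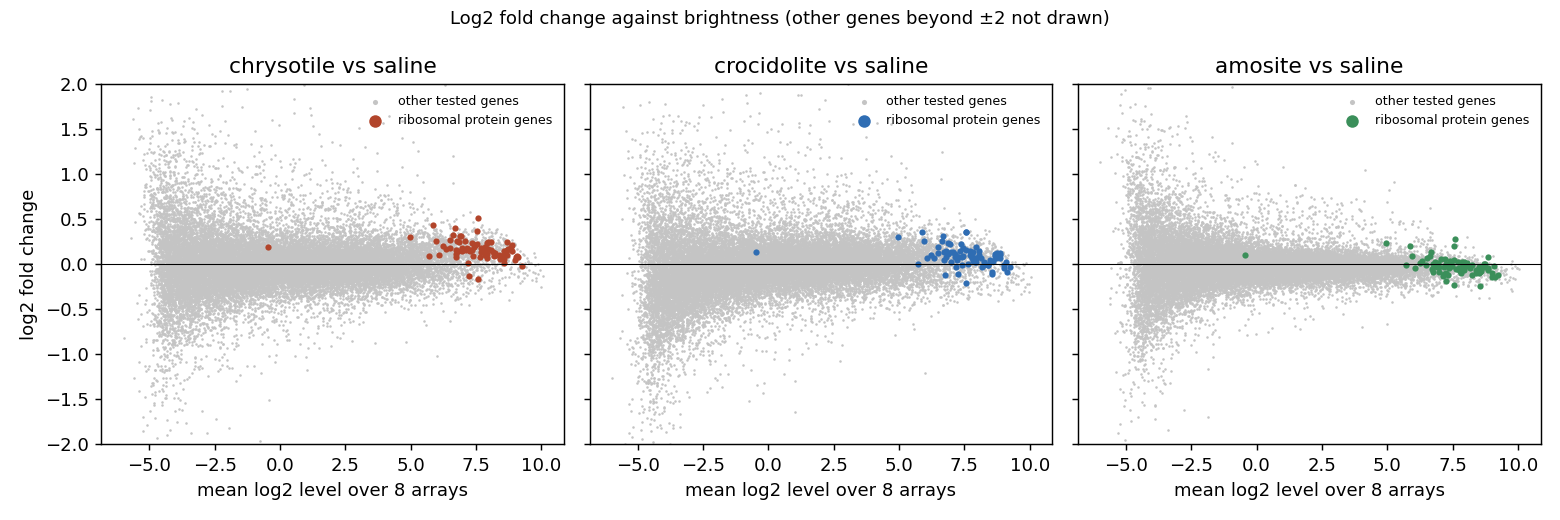
Log2 fold change of each fibre against saline (vertical axis) by mean log2 level over the 8 arrays (horizontal axis) for the members (coloured) and all other tested genes (grey); other genes beyond 2 log2 units are not drawn. The members sit at the bright end in a narrow band around medians of 0.16 with chrysotile, 0.07 with crocidolite and -0.03 with amosite.

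The difference with chrysotile varied with brightness among other genes as well. Non-members with mean levels of 2 to 4 had a median log2 fold change of 0.00, those of 6 to 7 had 0.08, those of 7 to 8 had 0.10 and those of 8 to 9 had 0.14. The members in the last 3 ranges had medians of 0.18 (17 genes), 0.16 (32 genes) and 0.13 (20 genes). Between 4 and 6 the other genes had 0.02 and the 4 members 0.28, and above 9 the 46 other genes had -0.04 and the 5 members 0.07. Member medians thus fell with brightness from 4 upward, while those of other genes rose up to 9, and the 2 kinds were closest between 8 and 9.

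Set against each other, the fibres ordered the members as chrysotile, crocidolite and amosite. Between chrysotile and crocidolite the median was 0.08, with 78 of 79 positive. Between chrysotile and amosite it was 0.18, with 79 of 79 positive, and between crocidolite and amosite 0.10, with 75 of 79 positive. In like-brightness genes the same medians were 0.05, 0.14 and 0.09. No member and no gene passed limma's test in any of these (0% each), and the smallest adjusted p of a member was 1, 1 and 0.996. Single arrays and the scaling moved these medians. The first was -0.04 without chrysotile replicate 1, -0.01 without crocidolite replicate 2 and -0.06 with median centring. The second was 0.03 without amosite replicate 2 and 0.33 without amosite replicate 1, and the last was -0.04 and 0.24 with the same arrays left out. With quantile normalization the 3 medians were 0.02, 0.05 and 0.02. Between arrays of the same replicate number, the order was that of the full groups. Replicate 1 and replicate 2 gave 0.11 and 0.06, 0.15 and 0.20, and 0.06 and 0.15. Against saline the replicate numbers differed more. Chrysotile gave 0.29 with replicate 1 (77 of 79 positive) and 0.02 with replicate 2 (47 positive). Crocidolite gave 0.19 (74 positive) and -0.05 (24 positive), and amosite 0.14 (72 positive) and -0.20 (1 positive).

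At an unadjusted p of 0.05, Rpl21 was again the only member higher in chrysotile than in amosite cells, by 0.30 ± 0.12 (SE, limma, adjusted p = 1), and 0 members were lower, against 2.63% and 1.7% of all genes. Between chrysotile and crocidolite 0 members were higher or lower, against 2.12% and 0.641%, and between crocidolite and amosite 0, against 2.47% and 2.66%. Arrays of chrysotile lay above those of crocidolite without overlap in 7 members and below in 0, against 12.8% and 10.5% of all genes. They lay above those of amosite in 13 and below in 0, against 17.8% and 15.6%. Arrays of crocidolite lay above those of amosite in 3 and below in 1, against 17.5% and 20.3%.

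The largest member differences between chrysotile and amosite were those of Rpl17 at 0.35 ± 0.19, Rps12 at 0.30 ± 0.15 and Rpl21 at 0.30 ± 0.12. Rpl17, which lines the exit tunnel of the 60S subunit, read 7.21 and 6.95 in chrysotile cells and 6.94 and 6.52 in amosite cells, barely apart. Between chrysotile and crocidolite the largest belonged to Rps3 at 0.20 ± 0.12, Rpl12 at 0.17 ± 0.20 and Rps14 at 0.17 ± 0.13. Rps3 read 6.94 and 6.78 in chrysotile cells and 6.66 and 6.66 in crocidolite cells, without overlap. The other probes gave less: 0.05 for the other bright probe of Rps3, 0.06 for its dim one and 0.07 for the other probe of Rpl12. Between crocidolite and amosite the largest belonged to Rpl27a at 0.27 ± 0.17, Rpl39 at 0.27 ± 0.20 and Rpl17 at 0.26 ± 0.19, all with overlapping arrays.

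A second reading of the members came from their other probes. In 55 members more than 1 probe passed the filter. With chrysotile the probes of a gene spanned a median of 0.10 log2 units, and in 48 of the 55 all probes had the same sign. With crocidolite they spanned 0.10 with 37 of 55 of the same sign, and with amosite 0.11 with 20 of 55. Over all 179 passing probes the median was 0.16 with chrysotile, 0.10 with crocidolite and -0.01 with amosite, close to the values from brightest probes.

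The span between probes of a gene was thus about as wide as the SD among genes. With chrysotile it was largest in Rps27a (0.51), Rpl21 (0.48), Rpl3 (0.35), Rpl14 (0.34) and Rpl39 (0.29). In Rpl14, a 60S protein, the brightest probe gave 0.15, another bright probe -0.18 and a dim one 0.08. In Rpl39 the 2 bright probes gave 0.23 and 0.27, and a dim one 0.52. The near-identical Rpl36 probes gave 0.01 and 0.00. Rpl6 had a span of 0.48 with amosite, where its dim probe gave 0.44 and its 3 bright probes -0.04 to 0.01.

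**Figure D4:**
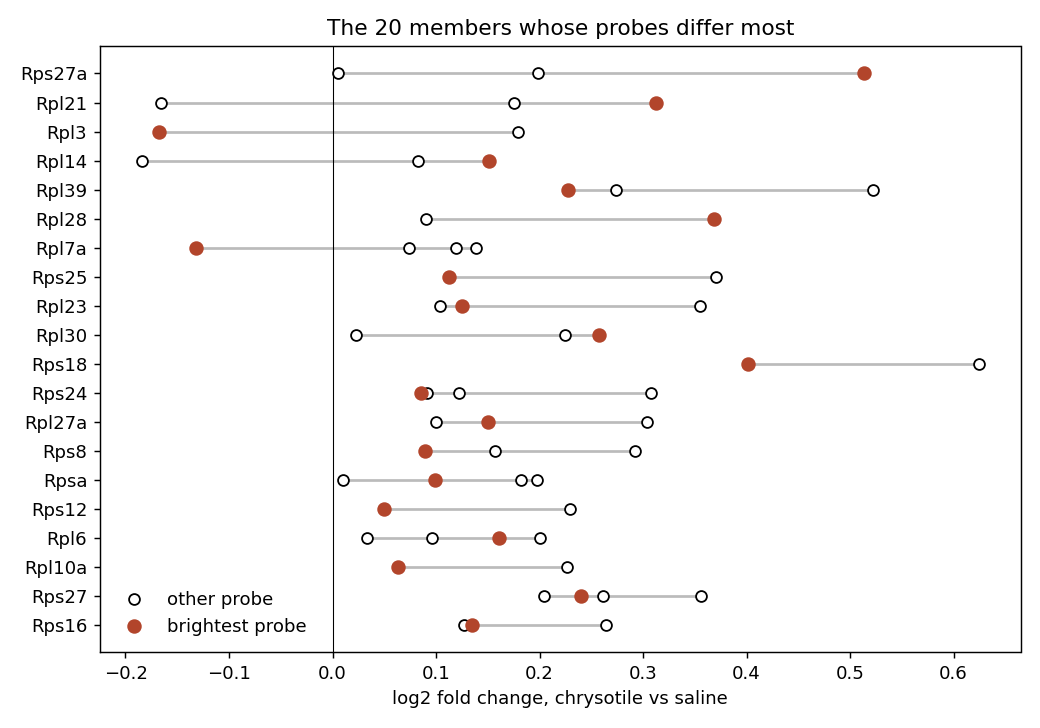
Log2 fold change of chrysotile against saline (horizontal axis) for each passing probe of the 20 members whose probes differ most; filled points are the brightest probe and open points the others, joined by a line. In Rps27a and Rpl28 the brightest probe lies above the others, and in Rpl3 and Rpl7a it lies below 0 while the others lie above.

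A list of 15 other genes whose mRNAs also begin with a TOP motif held elongation and initiation factors, the poly(A)-binding protein Pabpc1, and Btf3, Naca, Tpt1, Hnrnpa1 and Vim, of which Vim is also on the fibroblast list. Of these, 14 were positive with chrysotile (median 0.12), 13 with crocidolite (0.11) and 4 with amosite (-0.03). Eif3h, a subunit of initiation factor 3, had the largest value there, 0.42 ± 0.21 with chrysotile. The list was bright, with median levels of 6.32 to 6.38 against saline, just under the range of the like-brightness genes. Those genes had medians of 0.10, 0.06 and -0.04 with chrysotile, crocidolite and amosite, with 71.9%, 64% and 32.6% positive. Whether the list differs from them was not tested. No gene of this list, or of those that follow, passed limma's test.

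The machinery that makes ribosomes lay nearer to 0 than the members with chrysotile, but with crocidolite both subunit assembly lists lay further from 0 than the members. RNA polymerase I and its factors had a median of 0.07 with chrysotile, 0.03 with crocidolite and -0.03 with amosite over 14 tested genes. The 41 nucleolar genes of rRNA modification and processing had 0.01, 0.03 and -0.01. The 32 genes of large-subunit assembly and export had 0.04, 0.09 and 0.02, and the 18 of small-subunit assembly 0.10, 0.11 and 0.01. These lists were far dimmer than most members, with median levels of 0.78, 2.17, 1.89 and 1.79 in that order in the chrysotile comparison. Non-members with mean levels of 0 to 2 and of 2 to 4 had medians of -0.01 and 0.00 with chrysotile. With crocidolite they had 0.00 and 0.03. Noc4l, an assembly factor of the small subunit, had the largest values of its list, at 0.61 ± 0.36 with chrysotile, 0.66 ± 0.36 with crocidolite and 0.57 ± 0.36 with amosite.

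Other translation initiation factors (31 genes) had medians of 0.04, 0.07 and 0.00 with chrysotile, crocidolite and amosite. The 21 genes of mTORC1, MYC and TOP mRNA control had -0.04, 0.00 and -0.02. Tsc2, which restrains mTORC1, had -0.41 ± 0.51, -0.70 ± 0.51 and -0.55 ± 0.51, but it was dim and its arrays overlapped those of saline each time. The largest value of that list with chrysotile was that of Akt1s1, -0.75 ± 1.21, also with overlap. Rps6ka3 stood at 0.37 ± 0.22 with crocidolite, without overlap. The 15 genes of ribosomal stress and p53 had 0.03, 0.06 and -0.01. Bax, a pro-apoptotic p53 target, stood at 0.32 ± 0.12 with chrysotile and 0.36 ± 0.12 with crocidolite. Sesn1 of the same list went the other way, at -0.28 ± 0.14 and -0.32 ± 0.14. The arrays of both genes did not overlap those of saline. The 76 mitochondrial ribosomal protein genes, which build the separate ribosome of that organelle, had -0.06, -0.08 and -0.01, with 51, 56 and 40 negative. The largest difference of that list was positive: Mrpl1 stood at 0.77 ± 0.52 with chrysotile and 0.71 ± 0.52 with crocidolite, with overlapping arrays. Mrpl12 stood at -0.45 ± 0.15 with both chrysotile and crocidolite, without overlap. At an unadjusted p of 0.05 by limma, 2 mitochondrial ribosomal protein genes were lower with chrysotile and 1 with crocidolite, against 2.64% and 4.42% of all genes. With each of these fibres 1 gene of ribosomal stress and p53 and 1 other initiation factor were higher, against 2.83% and 2.87% of all genes with chrysotile and crocidolite. With crocidolite 1 gene of small-subunit assembly was higher and 2 of mTORC1, MYC and TOP mRNA control were lower. The other lists had 0 such genes against saline, and with amosite all 9 lists had 0.

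**Figure D5:**
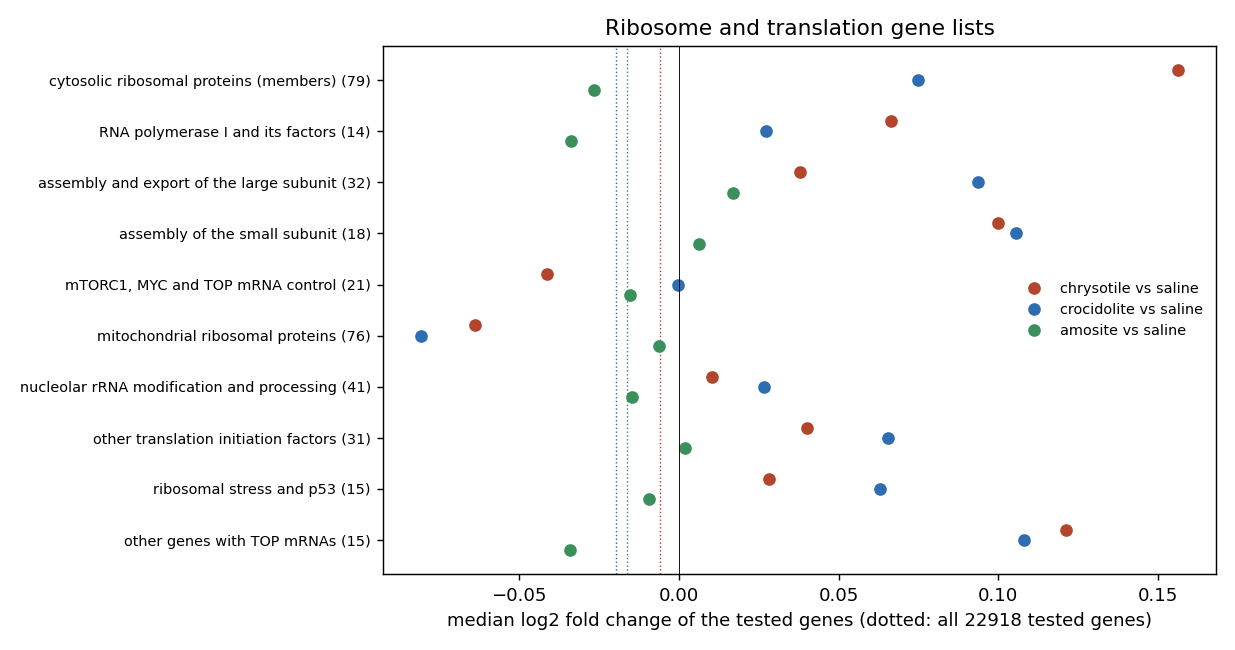
Median log2 fold change of each fibre against saline for the members and for 9 lists of ribosome and translation genes, with the number of tested genes in brackets; dotted lines are the medians of all 22918 tested genes. The members have 0.16, 0.07 and -0.03 with chrysotile, crocidolite and amosite, the other genes with TOP mRNAs 0.12, 0.11 and -0.03, and the mitochondrial ribosomal proteins -0.06, -0.08 and -0.01.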

How the data were processed

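The authors deposited scanner tables of 8 one-colour Agilent arrays; the intensity values are processed signals of Feature Extraction 10.7.1.1, per the file headers (10.7 in the submitters' processing notes). The deposited value table holds the same intensity (largest difference 0). Control and outlier spots were left out, spots of a probe averaged on the log2 scale, and log2 values centred on each array's 75th percentile. Probes had to be well above background on both arrays of a group. Each gene was read by its brightest probe, and all groups were fitted together with limma 3.58.1 in R 4.3.3 (lmFit, eBayes), with two-sided p-values adjusted by Benjamini-Hochberg over 22918 genes at 0.05. The steps were tested on simulated data. Genes of like brightness are tested non-members between the 10th and 90th percentile of the members' means. Named members had the largest differences, were the brightest, dimmest or not tested, had probes that differ most, or had set roles; list genes had the largest differences. Of the 82 members, 81 matched a RefSeq symbol. Members and lists were chosen with earlier results of these data known. Array position on the slide and group cannot be told apart. Some items are not reported here.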

Additional observations from a re-analysis of the deposited data

How the results depend on the processing

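The member medians, the counts of members called and the excess over genes of like brightness were recomputed in all 6 comparisons with a replicate block, quantile normalization, median centring, normexp background correction, the deposited value table, no filter on dim probes, probes above background on all arrays, the mean of probes, saturated probes left out (there were none), a trended and robust prior, only the groups compared, and each array left out. The tolerance for a change was an SD between replicates of levels on single arrays. It was 0.173 for the median level of the members and 0.102 for its gap to that of like-brightness genes. Of 342 recomputed values, 341 lay within this tolerance, and 0 members were called in any. The tolerance is wide, since it comes from levels and not from fold changes and exceeds most of the medians themselves. Several settings could not move a median or an excess at all. The replicate block and the prior leave the differences between group means unchanged in this balanced design. The deposited table held the same values, and no spot was saturated. That count of values within the tolerance is therefore partly fixed in advance. With quantile normalization the member median was 0.05 for chrysotile and 0.03 for crocidolite against saline, below 0.16 and 0.07. With crocidolite against saline, median centring gave a member median of 0.26; it also moved the median of all genes to 0.16. With amosite against saline the member median, -0.03, was 0.02 with quantile normalization and 0.03 with median centring, and chrysotile against crocidolite was -0.06 with median centring. Leaving out arrays gave medians of 0.03 to 0.27 for chrysotile, -0.03 to 0.19 for crocidolite and -0.17 to 0.12 for amosite against saline. Same-numbered arrays deviated together over genes (correlations of 0.254 to 0.456 in 6 pairs of groups), but the labels tie a number to nothing, so the block is an alternative. With the replicate block, which cannot move a member median here, the smallest adjusted p of a member by limma was 0.414. At an unadjusted p of 0.05 by limma with that block, 2 members were higher with chrysotile than with saline. In the same fit 1 was lower with amosite than with saline and 5 were higher with chrysotile than with amosite. Counts without each saline array were chosen after seeing the data. The number of arrays limits the precision.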
